A study of Arabidopsis thaliana with 6 samples.

Results

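The set described here holds the transcripts of Arabidopsis thaliana seedlings whose signal was raised at both 30 and 40 °C, in the AtrbohB mutant and in wild type alike. Signals were raised to at least 13.7 and put on the log2 scale. A probe set, the group of short probes that stands for a transcript on the array, became a member where 30 minus 20 °C and 40 minus 20 °C were both at least 1 (2-fold) in each genotype and the mutant lay within 1 of wild type at 40 °C. Genes of the organelle genomes and small heat shock proteins were left out where the annotation lists them. Of 22746 probe sets, 152 (0.668%) met the temperature conditions. Of these, 23 were more than 1 apart between the genotypes at 40 °C, and all 23 were lower in the mutant. A further 9 were listed as small heat shock proteins and 0 as organelle genes, which left 120 members (0.528%). The annotation lists 1 gene for 59 members, several for 3 and none for 58. Only the 59 are named, and the 2 exclusions by gene could act only where a gene was listed. No probe set with 1 listed gene was located on the mitochondrial genome. The 58 members with no listed gene may therefore still hold small heat shock proteins or organelle genes.

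Each of 6 groups had 1 Affymetrix ATH1 array. The groups were the mutant at 20, 30 and 40 °C and wild type at 20, 30 and 40 °C. All were Col-0 seedlings, grown on MS medium in a growth room with 16-h days and floated on distilled water at the stated temperature, with 90 plants pooled per sample. The mutant carries a dSpm transposon in At1g09090, which encodes the NADPH oxidase AtrbohB. It is a single insertion line per the labels, and its array at 40 °C is marked as a repeat without saying of what. The duration of the treatment and the age of the seedlings are not given in the sources used here. No probe set is listed for AtrbohB, and its signal was therefore left unexamined. The median signal of an array ranged from 38.5 to 44.0. At or under 13.7 were 22.9% to 27.6% of its probe sets. The leaf markers RCA, LHCB4.1, LHCB4.2 and PRK had signals of 1790 to 4291 on all 6 arrays. The root marker PYK10 had 2684, 2158 and 789.9 in the mutant at 20, 30 and 40 °C, against 2587, 1994 and 849.8 in wild type, so leaf and root transcripts were present on each array. In pooled seedlings, fewer cells of a type and less RNA per cell cannot be told apart. PYK10 fell by 1.69 at 40 against 20 °C on the log2 scale (limma, SE 0.11, adjusted p = 2.17e-05). The other 2 measured root markers were not called, EXPA7 at -0.32 and EXPA18 at 0.24, while 3 of the 4 leaf markers were called higher, by 0.41 to 0.70. The part of these shifts in the members' values was not tested.

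Plants answer heat by making molecular chaperones, proteins that hold unfolded polypeptides, refold them or pass them to degradation. HSP70 and HSP90 form the core of this system, DnaJ proteins deliver substrates to HSP70, and co-chaperones such as Hop join HSP70 to HSP90. Heat also opens calcium signals, read by EF-hand proteins and calmodulin, and respiratory burst oxidases such as AtrbohB, which make superoxide outside the cell, are themselves under calcium control. Warmth short of damage and outright heat stress share part of this response in plants. No sequences are shown, because none for the members were among the sources used here.

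The temperature differences chose the members and are given as a description. Member signals at 20, 30 and 40 °C had medians of 50.35, 280.8 and 249.0 in the mutant and 54.45, 275.15 and 323.75 in wild type. The median difference from 20 °C on the log2 scale came to 2.19 (30 °C) and 1.74 (40 °C) in the mutant and to 2.01 (30 °C) and 1.92 (40 °C) in wild type. Each member's smallest rise, the least of its 4 differences from 20 °C, ranged from 1.00 to 7.32 with a median of 1.41. It was under 2 in 90 members, at least 2 in 30, at least 3 in 19 and at least 4 in 14. The weakest of the 4 differences was most often that of the mutant at 40 °C (51 members), followed by both genotypes at 30 °C (25 each) and wild type at 40 °C (19). Over the 18227 probe sets entered in the tests below, it was that of the mutant at 40 °C in 3786 and of wild type at 40 °C in 3237. At 30 °C it was that of the mutant in 6936 and of wild type in 4268. At 20 °C, 11 members were at or under 13.7 on both arrays and 5 on 1, and for these a fold is a lower bound. None of the 120 was at that level at 30 or 40 °C.

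**Figure D1:**
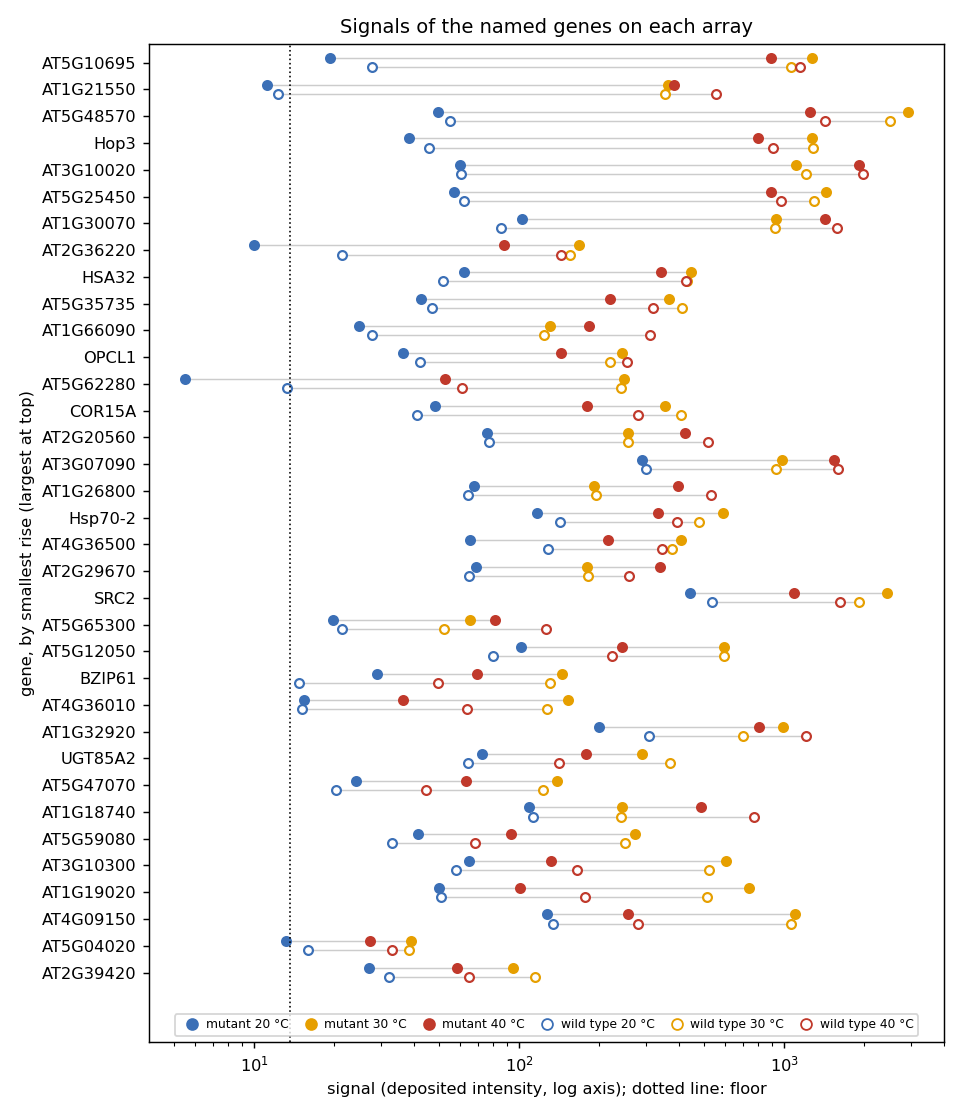
Signal (deposited intensity, log axis) of the 35 named genes on each of the 6 arrays, ordered by their smallest rise. Filled points are the mutant and open points wild type, at 20 °C (blue), 30 °C (yellow) and 40 °C (red), and the dotted line is the floor of 13.7. In every row the blue points lie left of the yellow and red ones, and the order of yellow and red differs from gene to gene.

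Of the chaperone and folding proteins, 7 were members. AT5G48570 encodes ROF2, a peptidyl-prolyl isomerase of the FKBP family that binds HSP90. Its signal was 49.4, 2935.2 and 1247.3 at 20, 30 and 40 °C in the mutant and 54.7, 2500.1 and 1429.6 in wild type. Both warm arrays of each genotype lay at least 25.2-fold above 20 °C, and both genotypes were lower at 40 than at 30 °C. Hop3 (AT4G12400), the organizing protein that joins HSP70 to HSP90, had 38.5, 1269.1 and 799.8 in the mutant and 45.7, 1286.5 and 906.7 in wild type. Its smallest rise was 19.8-fold, and it too was lower at 40 than at 30 °C in both genotypes. HSA32 (AT4G21320), a protein needed to keep acquired thermotolerance over days of recovery, had 61.9, 446.7 and 344.4 in the mutant and 51.4, 428.5 and 427.7 in wild type. Its signals at 30 and 40 °C were nearly equal in wild type, while the mutant was lower at 40 °C.

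Hsp70-2 (AT5G02490) belongs to the cytosolic HSP70 family and shares near-identical stretches with other members, so its probes may read more than 1 of them. Its signal was 117.0, 585.7 and 335.4 in the mutant and 142.7, 479.0 and 393.7 in wild type, again highest at 30 °C. AT2G20560, a DnaJ protein, ran the other way. It had 75.3, 258.4 and 422.7 in the mutant and 76.9, 257.4 and 517.0 in wild type, with each step up in temperature giving a higher signal. Cpn60beta2 (AT3G13470), a chloroplast chaperonin subunit, showed the same order, with 416.4, 877.6 and 1164.8 in the mutant and 423.3, 870.8 and 1188.6 in wild type. The remaining chaperone, the DnaJ protein AT1G56300, lay between 44.5 and 55.4 on the warm arrays and between 15.9 and 16.7 on those at 20 °C.

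The other members with a large smallest rise have varied roles. AT5G10695, a short protein of unknown function, had 19.4, 1277.5 and 890.2 in the mutant and 27.9, 1059.5 and 1145.8 in wild type. Its smallest rise was 38.0-fold, and its order at 30 and 40 °C was opposite in the genotypes. AT1G21550, an EF-hand calcium-binding protein, had 11.2, 363.8 and 384.3 in the mutant and 12.3, 355.8 and 554.2 in wild type. Both 20 °C values were under 13.7, so its smallest rise was at least 26.0-fold. AT3G10020, a protein of unknown function, had 59.8, 1111.9 and 1911.3 in the mutant and 60.5, 1209.8 and 1982.6 in wild type. It was highest at 40 °C in both genotypes, and the genotypes differed little at any temperature.

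AT5G25450 encodes a subunit of the mitochondrial cytochrome bc1 complex. Its signal was 56.8, 1432.2 and 889.6 in the mutant and 61.9, 1295.7 and 974.8 in wild type, with 30 above 40 °C in both. AT1G30070 carries the SGS domain found in partners of HSP90. It had 102.2, 928.1 and 1432.0 in the mutant and 85.6, 926.2 and 1588.4 in wild type, highest at 40 °C. AT2G36220 had 10.0, 168.2 and 87.9 in the mutant and 21.4, 155.8 and 143.4 in wild type; its mutant value at 20 °C was under 13.7. AT5G35735, a predicted membrane protein of the cytochrome b561 type, had 42.5, 367.0 and 220.8 in the mutant and 47.0, 410.4 and 319.8 in wild type. Both of these were lower at 40 than at 30 °C in both genotypes.

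AT1G66090, a TIR-NBS protein of the disease resistance type, had 24.8, 130.9 and 184.2 in the mutant and 27.9, 123.6 and 312.9 in wild type. It was higher at 40 than at 30 °C in both genotypes, and higher in wild type at 40 °C. OPCL1 (AT1G20510), a CoA ligase of jasmonate synthesis, had 36.4, 245.4 and 144.1 in the mutant and 42.3, 219.5 and 255.1 in wild type. Its 40 °C signal was below that at 30 °C in the mutant and above it in wild type. Among the 61 members without a single listed gene, the smallest rise had a median of 1.49 and reached 4 or more in 9. The largest of all was that of a probe set with no listed gene, at least 160.2-fold on every warm array. It had 11.5, 3313.8 and 2194.3 in the mutant and 10.4, 2824.3 and 2819.3 in wild type. No exclusion by gene could act on these members, and whether small heat shock proteins are among them was not tested.

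The comparison of 40 with 30 °C sets the warm temperatures against each other. It was tested over all 18227 probe sets above 13.7 on at least 2 arrays, with limma on log2 signals, additive terms for genotype and temperature, and a call at an adjusted p under 0.05. All 120 members passed that filter. The rule set the same minimum at 30 and 40 °C and did not use their difference, but the arrays are those that chose the members. With 1 array per group, the error of this fit holds the departure from additivity together with array noise. The rule's limit on mutant minus wild type at 40 °C bounds part of that departure, and it was set for members only. The shares called among members and among all probe sets are therefore not independent of the rule. At 40 against 30 °C, 29 members were called higher (24.2%; 24.9% of all probe sets tested) and 44 lower (36.7%; 17.8% of all), while 47 were not called. With all 6 arrays, the share called higher was close to the background, and the share called lower was above it. The background was not held to the rule's minima, so this comparison is a description only. The median difference was -0.20 on the log2 scale among members and 0.15 over all probe sets tested. Both counts and their standing against the background depended on the arrays in the fit. Without the mutant array at 40 °C, 19 members (15.8%) were called higher, against 7.0% of all, and 12 (10.0%) lower, against 8.27% of all, so that the lower share was then near the background and the higher share above it. Without the mutant array at 30 °C, 15 (12.5%) were higher, against 8.78% of all, and 17 (14.2%) lower, against 8.67%. Without the wild-type array at 30 °C, 15 (12.5%) were higher, against 12.0%, and 29 (24.2%) lower, against 9.87%. Without the wild-type array at 40 °C, 18 (15.0%) were higher, against 8.92%, and 19 (15.8%) lower, against 9.22%.

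**Figure D2:**
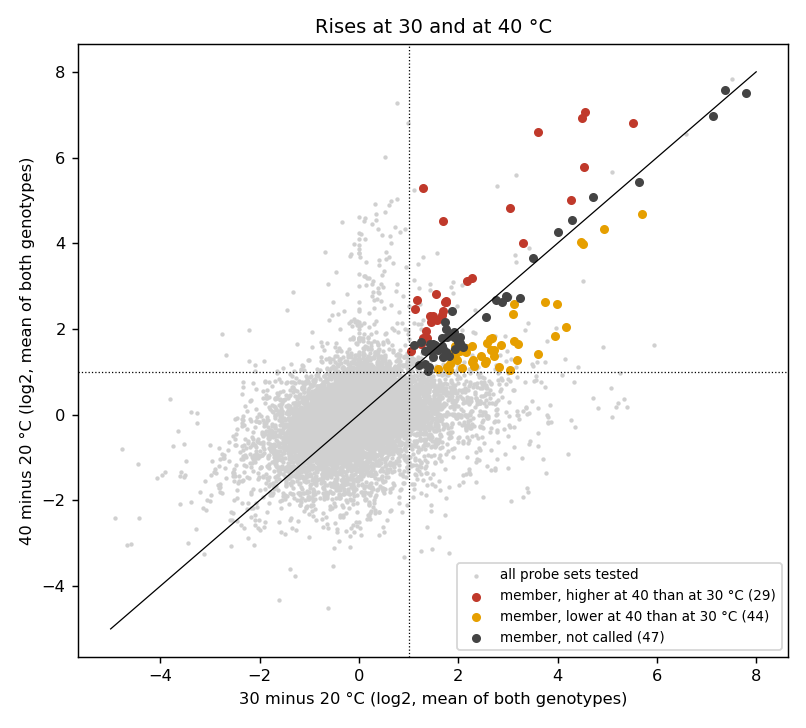
Difference of 40 minus 20 °C (y axis) against 30 minus 20 °C (x axis), both log2 means of the 2 genotypes, for all 18227 probe sets tested (grey) and the 120 members. Colours give the call at 40 against 30 °C (29 higher in red, 44 lower in yellow, 47 not called in dark grey), the solid line marks equal rises and the dotted lines the rule's minimum of 1.

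Among the 61 members without a single listed gene, 17 (27.9%) were called higher at 40 than at 30 °C and 18 (29.5%) lower. Over all probe sets tested, these shares were 24.9% and 17.8%. Of the 17, 5 were at least 4-fold higher, and the largest difference was 4.00 on the log2 scale. The 12 single-gene members called higher (20.3% of the 59) came from several roles. Among these 12, the largest difference was that of AT1G18740, a protein of unknown function with a DUF793 domain. It had 108.9, 243.9 and 484.3 in the mutant and 113.2, 242.0 and 772.7 in wild type at 20, 30 and 40 °C. At 40 against 30 °C it rose by 1.33 ± 0.17 on the log2 scale (limma, SE; adjusted p = 0.00042). Its call ended without the wild-type array at 30 °C (adjusted p = 0.0508; 2.34e-05 to 0.0508 over its 14 alternatives). AT1G26800, a RING ubiquitin ligase that marks misfolded proteins, had 67.3, 191.8 and 397.8 in the mutant and 63.9, 194.4 and 528.5 in wild type. It rose by 1.25 ± 0.14 (adjusted p = 0.000249) and kept its call in all 14 alternatives. The DnaJ gene AT2G20560 rose by 0.86 ± 0.12 (adjusted p = 0.000729), and AT3G10020 by 0.75 ± 0.10 (adjusted p = 0.000465), both called in all alternatives too.

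AT3G07090, a predicted peptidase of the PPPDE family, had 290.4, 984.5 and 1545.6 in the mutant and 300.6, 931.4 and 1593.9 in wild type. It rose by 0.71 ± 0.10 (adjusted p = 0.000661) and was called in all alternatives. AT2G29670, a tetratricopeptide repeat protein, had 68.6, 180.5 and 341.2 in the mutant and 64.4, 181.4 and 259.4 in wild type. It was called higher by 0.72 ± 0.14, a call that ended without either mutant array at 30 or 40 °C. AT1G66090, the disease resistance type gene, was called higher by 0.92 ± 0.21 and lost its call without the mutant 30 °C array or either wild-type array at 30 or 40 °C. AT5G65300, a protein of unknown function with 19.9, 65.4 and 81.1 in the mutant and 21.5, 52.1 and 126.7 in wild type, was higher by 0.80 ± 0.25 and lost its call with any 1 of the 6 arrays left out (highest adjusted p = 0.35, lowest 0.0115 over its alternatives).

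Of the 59 single-gene members, 26 (44.1%) were called lower at 40 than at 30 °C, against 17.8% of all probe sets tested. These 26 included 13 that were at least 2-fold lower. Among all 18227 probe sets tested, 1562 were called and at least 2-fold lower. AT1G19020, a small protein of unknown function used as a marker of oxidative stress, had 49.7, 739.7 and 100.3 in the mutant and 50.9, 509.6 and 176.9 in wild type. It fell by 2.20 at 40 against 30 °C on the log2 scale (SE 0.26, adjusted p = 0.000339). Its signal at 40 °C stayed above that at 20 °C by only 2.02-fold in the mutant, the smallest of its 4 rises. AT5G62280, a protein with a DUF1442 domain, had 5.5, 248.9 and 52.4 in the mutant and 13.3, 242.3 and 60.7 in wild type. It fell by 2.12 (SE 0.18, adjusted p = 5.4e-05), and both of its 20 °C values were under 13.7. AT4G09150, a T-complex protein 11 family member, had 127.2, 1099.5 and 256.4 in the mutant and 134.6, 1064.6 and 280.0 in wild type. It fell by 2.01 (SE 0.10, adjusted p = 3.99e-06). These 3 genes peaked at 30 °C in both genotypes and were called in every alternative that tested them (13 for AT5G62280, 14 for the others).

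AT3G10300, an EF-hand calcium-binding protein, had 64.7, 601.0 and 131.8 in the mutant and 57.9, 519.0 and 165.2 in wild type, and fell by 1.92 (SE 0.15). AT5G59080, of unknown function, had 41.5, 274.5 and 92.9 in the mutant and 33.1, 250.4 and 68.2 in wild type, and fell by 1.72 (SE 0.15). AT5G12050, a protein of the BIG GRAIN type, which acts on auxin responses in rice, had 101.8, 594.7 and 245.0 in the mutant and 79.6, 592.0 and 223.7 in wild type, and fell by 1.34 (SE 0.12). All 3 kept their call in every alternative. AT4G36010, a thaumatin family defence protein, had 15.4, 152.8 and 36.3 in the mutant and 15.1, 127.4 and 63.8 in wild type. It fell by 1.54 (SE 0.27), a call lost without either mutant array at 30 or 40 °C. AT5G47070, a receptor-like cytoplasmic kinase, had 24.3, 139.4 and 63.0 in the mutant and 20.4, 122.6 and 44.5 in wild type. It fell by 1.30 (SE 0.19), with the call lost only without the wild-type array at 40 °C (adjusted p = 0.0511; 6.73e-05 to 0.0511 over its alternatives).

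Over all probe sets tested, 24.9% were called higher at 40 than at 30 °C and 17.8% lower. By role, grouped from what the named members are known to do, chaperones were called in both directions. Of the 7 chaperone and folding members, 2 were called higher at 40 than at 30 °C (AT2G20560 and Cpn60beta2), 3 lower (AT5G48570, Hop3 and Hsp70-2) and 2 were not called. AT5G48570 fell by 1.02 (SE 0.12), Hop3 by 0.59 (SE 0.10) and Hsp70-2 by 0.54 (SE 0.15), whereas Cpn60beta2 rose by 0.43 ± 0.09. The call of AT5G48570 ended without the mutant array at 40 °C, that of Hop3 and Hsp70-2 without either mutant array at 30 or 40 °C or the wild-type array at 40 °C, and that of Cpn60beta2 without any 1 of the 4 arrays at 30 and 40 °C or with arrays centred on the median. Of 6 calcium and calmodulin members, 2 were called lower (AT3G10300 and SRC2) and none higher. SRC2 (AT1G09070), a C2-domain protein that in Arabidopsis activates the oxidase AtrbohF, had 443.0, 2445.8 and 1093.7 in the mutant and 535.3, 1920.7 and 1621.0 in wild type. It fell by 0.70 (SE 0.19) and was called in only some fits, since leaving out 5 of the 6 arrays in turn ended the call.

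Of 4 members in ubiquitin or membrane protein turnover, 2 were called higher (AT1G26800 and AT4G15420, a UFD1 family protein) and 1 lower (VPS2.1, AT2G06530, of the ESCRT-III complex). Of 5 in defence or jasmonate synthesis, 1 was called higher (AT1G66090) and 2 lower (AT4G36010 and AT5G47070). Both transcription factors, BZIP61 (AT3G58120) and the PLATZ protein AT5G46710, were called lower, by 1.23 (SE 0.23) and 0.68 (SE 0.23). Of 2 translation proteins, the elongation factor subunit AT5G12110 was called lower and the SUI1 family factor AT5G54940 was not called. The 29 members without a role given held 6 called higher, 12 lower and 11 not called. Groups this small are read only as counts, beside 24.9% called higher and 17.8% lower over all probe sets tested. In 28 of the 38 called single-gene members, leaving out at least 1 array ended the call. These include AT4G15420, VPS2.1, BZIP61, AT5G46710 and AT5G12110, and the calls of AT4G15420, AT5G46710, AT5G12110, Hsp70-2 and SRC2 also ended with a variance prior that does not follow mean expression. Centring the arrays ended those of AT4G15420 and AT5G65300, and quantile normalization, or a fit with neither floor nor filter, ended those of AT5G46710 and AT5G12110.

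Taken genotype by genotype, 38 members (31.7%) were higher at 40 than at 30 °C in both genotypes, against 48.6% of all probe sets tested, and 60 (50.0%) were lower in both, against 30.1% of all. In 17 members wild type was higher and the mutant lower at 40 than at 30 °C, and in 5 the reverse held. Among all 18227 probe sets tested these numbered 1288 and 1908. The median of 40 minus 30 °C was -0.30 in the mutant and -0.10 in wild type. At least 2-fold lower at 40 °C were 25 members (20.8%) in the mutant, against 9.12% of all probe sets tested, and 15 (12.5%) in wild type, against 8.55% of all. At least 2-fold higher were 10 (8.33%) in the mutant, against 10.3% of all, and 16 (13.3%) in wild type, against 7.58% of all. The mutant's difference was below that of wild type in 87 members (72.5%), against 44.2% of all probe sets tested. The rule bears on this share, since it removed 23 probe sets that were lower in the mutant at 40 °C. A difference between the genotypes in response has no test with 1 array per group.

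**Figure D3:**
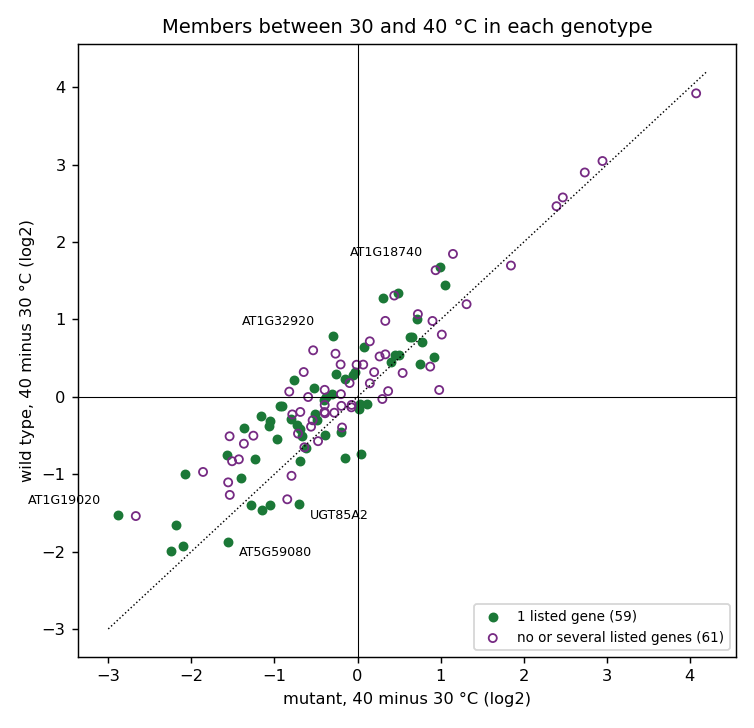
Difference of 40 minus 30 °C (log2) in wild type (y axis) against the mutant (x axis) for the 59 members with 1 listed gene (green) and the 61 with none or several (open). The dotted line marks equal differences, and 87 of the 120 members lie above it.

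The comparison of mutant with wild type bears on the study's question, the part of the respiratory burst in thermotolerance. Across the 3 temperatures, 0 of 120 members were called by limma in either direction (0.0% of all probe sets tested were called higher and 0.0% lower). The fit holds 1 genotype term for all temperatures. A genotype difference that changes with temperature enters its error, so these counts cannot show one confined to a single temperature. At an unadjusted p under 0.05 there were 12 members (10.0%), against 4.03% of all, and the smallest adjusted p of a member was 0.978. The rule's limit at 40 °C bears on this share too, since it bounds the genotype difference and part of the fit's error in members only. No member was 2-fold apart at 20 °C (0.625% of all probe sets tested were) or at 30 °C (0.642%). At 40 °C, where 1.55% of all probe sets tested were 2-fold apart, the rule itself kept the members within that fold. Mutant minus wild type had medians of -0.04, 0.06 and -0.22 (log2) over the members at 20, 30 and 40 °C, against 0.00, -0.02 and 0.00 over all probe sets tested. At 20 °C, 41 members (34.2%) were higher and 68 (56.7%) lower in the mutant, against 50.6% and 44.4% of all probe sets tested. At 30 °C, 73 (60.8%) were higher and 47 (39.2%) lower, against 40.6% and 53.9% of all. This excess lay in the 59 members with 1 listed gene (43 higher, 16 lower), while the other 61 split 30 to 31. Signals at 20 and 30 °C also chose the members. At 40 °C, 26 (21.7%) were higher and 94 (78.3%) lower, against 49.8% and 47.3% of all, a split on which the rule bears as above. The members higher in the mutant at 30 °C and lower at 40 °C numbered 59 (49.2%), against 18.9% of all. Quantile normalization gave 64 higher and 56 lower at 30 °C, and centring the arrays gave 86 and 34; the counts at 40 °C were the same under both.

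**Figure D4:**
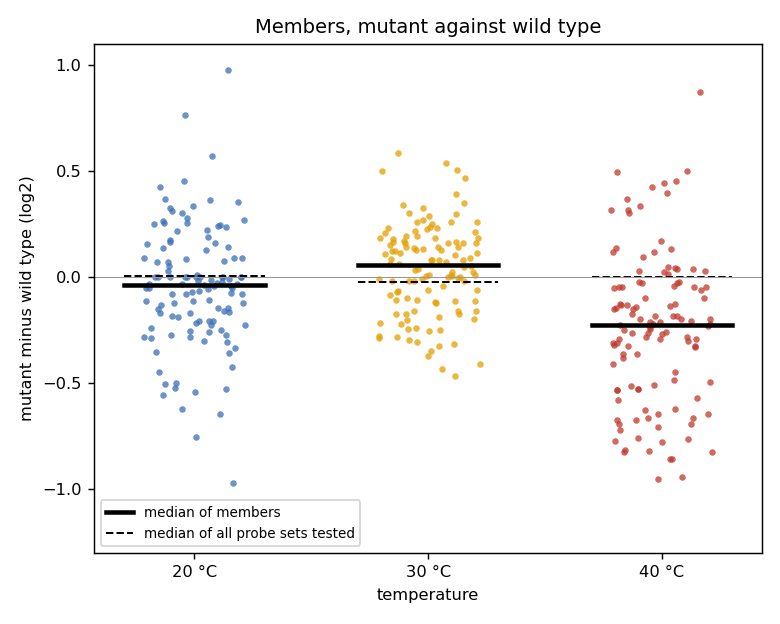
Mutant minus wild type (log2) of the 120 members at 20, 30 and 40 °C, 1 point per member. Thick lines are the members' medians (-0.04, 0.06 and -0.22) and dashed lines those of all probe sets tested; at 40 °C the rule kept the members between -1 and 1.

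Among the 59 members with 1 listed gene, those furthest apart between the genotypes at 20 °C were BZIP61, a basic leucine zipper transcription factor, and AT4G36500, of unknown function. BZIP61 had 29.1, 144.6 and 69.6 in the mutant and 14.8, 130.3 and 49.4 in wild type, so that the mutant was 0.98 higher at 20 °C on the log2 scale. AT4G36500 had 65.4, 407.0 and 216.8 in the mutant and 128.3, 376.5 and 346.0 in wild type, with the mutant 0.97 lower in log2 signal at 20 °C. AT2G36220, given above, was lower by 0.64 with the mutant at the floor. At 30 °C the largest differences among these 59 were those of AT1G19020, higher in the mutant by 0.54, and AT1G32920, higher by 0.50. SRC2 was 0.35 higher and UGT85A2 (AT1G22360), a glucosyltransferase, 0.35 lower. UGT85A2 had 72.1, 291.4 and 179.1 in the mutant and 64.3, 370.9 and 141.8 in wild type. AT1G32920, of unknown function, had 200.3, 993.4 and 806.9 in the mutant and 308.7, 700.2 and 1205.3 in wild type. It was lower in the mutant at 20 and 40 °C and higher at 30 °C. Each of these values is a difference of 2 arrays.

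The wider chaperone lists show how far other annotated genes of the system met the rule. A gene counts as measured, or as having its own probe set, where the annotation lists it alone for a probe set. Others may lie among the 8730 probe sets with no listed gene. Of 13 co-chaperones listed, 8 had a probe set of their own, and 2 were members (AT5G48570 and Hop3). At 30 against 20 °C, 6 of the 8 were called higher (14.9% of all probe sets tested), and at 40 against 20 °C 7 were (13.5% of all). The rule chose members by these same differences, and all 120 were called in both. Counts against 20 °C that include members, here and for the lists below, are therefore a description only. At 40 against 30 °C, 1 was called higher (24.9% of all probe sets tested) and 6 lower (17.8% of all). The non-members SGT1A (AT4G23570), Fes1A (AT3G09350) and AT3G12050, an Aha1 domain protein, fell short at 40 °C. SGT1A, a partner of HSP90 in immune signalling, had 169.2, 1071.2 and 240.2 in the mutant and 180.2, 903.4 and 358.7 in wild type. Fes1A, which acts on HSP70, had 214.7, 1056.0 and 358.3 in the mutant and 272.9, 1032.8 and 439.9 in wild type. AT3G12050 had 320.2, 980.9 and 608.6 in the mutant and 311.4, 1061.2 and 679.8 in wild type, missing the minimum of 1 only in the mutant at 40 °C, at 0.93.

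Of 17 HSP70 genes listed, 4 had a probe set of their own and Hsp70-2 was the only member among them. Of these 4, 3 were called higher at 30 against 20 °C (14.9% of all probe sets tested), and 2 at 40 against 20 °C (13.5% of all). Of 13 DnaJ genes listed (the member AT1G56300, given above, was not on this list), 5 were measured and AT2G20560 alone of these was a member. Among these 5, 3 were called higher and 0 lower at 30 against 20 °C (20.7% of all probe sets tested were lower), and 1 higher and 1 lower at 40 against 20 °C (14.7% of all were lower). Of 26 heat shock factors and heat regulators, only HSA32 was measured in that sense. None of the HSP100, HSP90 or chaperonin genes on the lists had a probe set of its own in the annotation. Whether these listed genes met the rule is therefore not known here. The chaperonin subunit Cpn60beta2, a member, was not on the lists. Of 16 cold and abscisic acid genes, 4 were measured. All 4 were called higher at 30 against 20 °C (14.9% of all probe sets tested) and 3 at 40 against 20 °C (13.5% of all). COR15A (AT2G42540), a chloroplast protein that protects membranes in frost, was the only member among them, with 48.0, 353.9 and 181.0 in the mutant and 41.2, 406.8 and 279.8 in wild type. It fell by 0.75 at 40 against 30 °C (SE 0.19), a call lost without any 1 of the 4 arrays at 30 and 40 °C. Of 8 oxidative stress markers, 3 were measured, and AT1G19020 alone was a member. None of the measured reactive oxygen scavengers (4 of 12), leaf markers (4 of 6) or root markers (3 of 4) was a member.

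The genes nearest the minimum of 1 are given by their smallest rise. Just inside, the smallest rise was 1.01 in AT1G19020 and AT4G09150 and 1.00 in AT5G04020 and AT2G39420. AT5G04020, a calmodulin-binding protein, had 13.2, 39.0 and 27.4 in the mutant and 16.0, 38.4 and 33.0 in wild type. AT2G39420, a predicted monoacylglycerol lipase, had 27.1, 94.4 and 58.3 in the mutant and 32.3, 115.0 and 64.6 in wild type. Just outside were AT2G42320 (0.99), AT3G45260 (0.98), AT4G39670 (0.98) and AT2G30600 (0.97). AT2G30600, a BTB domain protein, had 77.8, 891.1 and 152.2 in the mutant and 73.6, 797.7 and 193.5 in wild type.

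The 58 located members lay on all 5 chromosomes, 14, 8, 8, 9 and 19 on chromosomes 1 to 5. Chromosome 5 held 32.8% of them and 22.4% of all located probe sets. Few were near neighbours in the genome. AT1G22330 and UGT85A2 were 2 genes apart, and AT4G35985 and AT4G36010 were 3 apart.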

How the data were processed

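RNA of 6 pooled seedling samples was hybridised to ATH1 arrays. The authors deposited 1 linear intensity per probe set and array, scaled so that the mean after trimming 2% at each end is 100.0; the summary method is not given in the sources used here. Of 22810 probe sets, 64 controls were left out. Gene names came from the platform annotation (1 gene for 13513 probe sets, several for 503, none listed for 8730), updated through RefSeq TAIR10.1, which matched 13436 and did not match 77. Values were raised to 13.7, the 25th percentile of all arrays, before log2, and 18227 probe sets above it on at least 2 arrays entered limma 3.58.1 (R 4.3.3; genotype plus temperature, eBayes with trend, 2 residual and 6.08 prior degrees of freedom, two-sided, Benjamini-Hochberg over all probe sets). The script was tested on simulated data. The number of arrays limits the precision.

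Members and gene lists were chosen with earlier results of these data known, and role groups after the members were seen. The genes named, all single-gene members, are the 12 with the largest smallest rise, the 8 highest and 8 lowest at 40 against 30 °C of 1 sign in both genotypes, the 4 nearest each side of the minimum, the 4 furthest apart between genotypes at 20 and at 30 °C, list members, and up to 3 non-members of chaperone lists. Other members named for their role were chosen after their values were seen. The planned promoter motif search was not run, since no promoter sequence was among the sources used here. Alternatives were other floors, pseudocounts, scalings, filters, variance priors and thresholds, and each array left out. Figures were drawn with matplotlib 3.10.9.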

Additional observations from a re-analysis of the deposited data

Results flagged for a closer look

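AT1G32920 moved in opposite directions between 30 and 40 °C in the genotypes. The difference of 40 minus 30 °C was -0.30 in the mutant and 0.78 in wild type on the log2 scale, so the mutant response minus the wild-type response was -1.08. It rests on 1 array per group, and the difference was not tested. In all, 17 members were higher at 40 than at 30 °C in wild type and lower in the mutant, and 5 the reverse. Among all 18227 probe sets tested these numbered 1288 and 1908. AT1G19020 had a larger difference in response, at -1.36, but fell in both genotypes.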

How the results depend on the processing

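The rule selected 237 probe sets with no floor and no filter, 194 at a minimum of 0.8 and 52 at 1.5 on the log2 scale, against 120. It selected 103 with the floor at the 40th percentile, 83 on log2(value + 16), 121 after quantile normalization (112 shared) and 116 with arrays centred on the median (110 shared). With all 6 arrays, between 22 and 31 members were called higher at 40 than at 30 °C and between 35 and 49 lower. With an array left out, 15 to 27 were called higher and 12 to 38 lower, and the median difference lay between -0.28 and -0.07. Each of these smaller fits has 1 residual degree of freedom. Fewer members were called in either direction without an array at 30 or 40 °C, the temperatures compared, than without one at 20 °C. Without a 20 °C array the members' median difference stayed at -0.20, and both arrays at 30 and at 40 °C were kept. Without an array at 30 or 40 °C, a compared temperature kept 1 array. The part of this in the fewer calls was not tested. Centring moved the median 40 minus 30 °C difference of all probe sets tested from 0.15 to 0.03 and their calls from 4538 higher and 3243 lower to 3211 higher and 3811 lower; the members' median under centring was -0.34. No alternative called a member between mutant and wild type with limma. Members 2-fold apart at 20 °C numbered 2 with no floor and 1 with centring, against 0. Of 822 values of single genes under the alternatives, 700 stayed called or not called as before, 107 lost the call and 15 gained it. The sign changed in 23 values, from 12 genes that were not called, and in 0 values of called genes; 29 of 38 called genes kept the call in every alternative with all arrays. Rule membership and 2-fold counts could not be computed with an array left out. No paired analysis was possible because each group has 1 array, numbered 1, so the groups share fewer than 2 replicate numbers; the fit itself compares temperatures within genotype.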
